A study of Mus musculus with 2 samples.

Results

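Mir140 is the mouse gene of the microRNA miR-140, and its arms and end variants were read from the small RNAs of LPS-stimulated dendritic cells. Members were the deposited sequences that matched the Mir140 hairpin of GENCODE vM21 on the sense strand, over their full length or with up to 3 unmatched bases at the 3′ end. The gene was chosen by its measured level ratio between the libraries and by the spread of its arms, starts and ends, so these values are given as a description. In all, 290 of the 538100 distinct sequences met this rule. They took 19271 of 2000019 nuclear reads and 60131 of 2041383 cytoplasmic reads. No member matched another annotated small RNA, and no sequence of 18 nt or longer matched the opposite strand of the hairpin. Sequences with 1 unmatched base made up 52 members, those with 2 made up 89 and those with 3, the last inside the rule, made up 118. Just outside the rule, 77 sequences with 4 unmatched bases had 58 nuclear and 185 cytoplasmic reads.

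The cells were bone marrow-derived dendritic cells of C57BL/6 mice, kept in culture with GM-CSF and IL-4 over 7 days and then given LPS, so all of the material had been treated. The nuclear library was made from RNA of the pellet that contained the nuclei after swelling and lysis with NP40, and the cytoplasmic library from RNA of the cytoplasmic fraction, with 1 library of each. With no replicate, every difference compares these 2 libraries and no p-value is given. The 95% intervals cover counting error alone, because amplified reads that carry no molecular identifier do not each stand for a separate molecule. In RNA of many cells, fewer cells with a miRNA and less of it per cell cannot be told apart.

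A microRNA is cut from a hairpin in 2 steps, by Drosha in the nucleus and by Dicer in the cytoplasm, which leaves a short duplex of a 5p and a 3p strand. An Argonaute protein keeps one strand, the guide, and the other, the passenger, is mostly lost. The guide recognises mRNAs through its seed, bases 2 to 8 from the 5′ end, so a cut displaced by a single base gives another seed. Variants of the ends of a miRNA are called isomiRs, and bases added to the 3′ end that the gene does not encode come from terminal nucleotidyl transferases. miR-140 is best known from cartilage, where it acts in skeletal development, and it is made in other tissues as well.

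The hairpin lies on chromosome 8, plus strand, at positions 107551244 to 107551313 of GRCm38. It sits within Wwp2, a ubiquitin ligase gene on the same strand (107436365 to 107558595), in intron 16 of the transcript Wwp2-201, and inside an annotated retained-intron transcript (Wwp2-206). The hairpin, of 70 nt, is shown first because all positions refer to it. Capitals mark the most abundant 5p and 3p sequences. The mature miR-140-3p of RefSeq (GRCm38.p6, positions 107551288 to 107551308) follows, with its seed in capitals. The 3 most abundant 3p sequences in the libraries, written with T as deposited and with the seed in capitals, show the displaced start and the longer end. The leading 5p sequence and the loop sequence stand for the scarce rest.
Mir140 hairpin: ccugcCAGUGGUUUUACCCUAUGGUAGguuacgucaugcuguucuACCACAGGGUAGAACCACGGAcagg
annotated miR-140-3p: uACCACAGgguagaaccacgg
3p sequence A: aCCACAGGgtagaaccacgga
3p sequence B: tACCACAGggtagaaccacgga
3p sequence C: tACCACAGggtagaaccacgg
leading 5p sequence: cAGTGGTTttaccctatggtag
loop sequence: ggttacgtcatgctgttcta

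The fractions and the cell label were checked on other small RNAs. Fragments of snoRNAs, which stay in the nucleus, took 9.04% of the nuclear library and 0.289% of the cytoplasmic library, while mitochondrial tRNA and rRNA took 0.248% and 0.402%, so the nuclear library held RNA from outside the nucleus too. All 5 myeloid marker miRNAs were present, with 192 to 3218 nuclear and 449 to 5565 cytoplasmic reads each. All 9 stromal and cartilage marker names had reads, from 0 to 562 nuclear and 2 to 819 cytoplasmic, though miR-199a-3p and miR-199b-3p share one set of reads (562 and 540), with miR-455-3p, a cartilage miRNA, at 61 and 83 reads. Of 5 epithelial markers 4 had reads, up to 85 nuclear and 146 cytoplasmic. The liver marker miR-122-5p had 287 nuclear and 24 cytoplasmic reads, and the 3 muscle markers together had 141 and 18. The erythroid, lymphoid and endothelial markers had 3 reads or fewer in each library, and miR-144-3p (erythroid) and miR-205-5p (epithelial) were at 0. The part of such cells in the miR-140 reads was not tested.

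The first question was how much of each arm the fractions held. miR-140-3p had 19252 reads, 9626 RPM (the number of reads scaled to the library total), in the nuclear library and 60111 reads, 29446 RPM, in the cytoplasmic library. By level it was number 11 of 237 miRNA arms in the nuclear library and number 7 in the cytoplasmic library, so it was among the leading miRNAs of both. Its nuclear level was 0.327 times its cytoplasmic level (95% interval 0.322 to 0.332), a log2 ratio of -1.61. Of the 237 arms with at least 50 reads, 26.2% were at least 2-fold lower in the nuclear library with an interval that excluded 1, and 16.0% were higher. Over all 944 entries with at least 50 reads these shares were 11.2% and 41.1%. Besides the miRNA arms, these entries hold other small RNAs and fragments of long transcripts such as mRNAs, counted per gene. miR-140-3p was among the lower ones.

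The size of the difference depended on how the libraries were scaled, as 40.5% of the nuclear library and 74.8% of the cytoplasmic library was miRNA. Scaled to the miRNA total, the log2 ratio of miR-140-3p was -0.73, which is short of 2-fold, so it was no longer among the arms called lower. The median of all miRNA arms was -0.58 in RPM and 0.30 under the miRNA total. Relative to that median miR-140-3p lay 1.03 lower on the log2 scale. This distance is fixed by construction, because a scaling shifts all arms alike. Of the miRNA reads, miR-140-3p made up 2.38% in the nuclear library and 3.94% in the cytoplasmic library. The 5 arms with at least 1000 reads whose log2 ratio was nearest to its own, over these 2 libraries, were miR-342-3p (-1.64), miR-221-3p (-1.55), miR-146b-5p (-1.54), miR-378c-5p (-1.53) and miR-192-5p (-1.72).

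**Figure D1:**
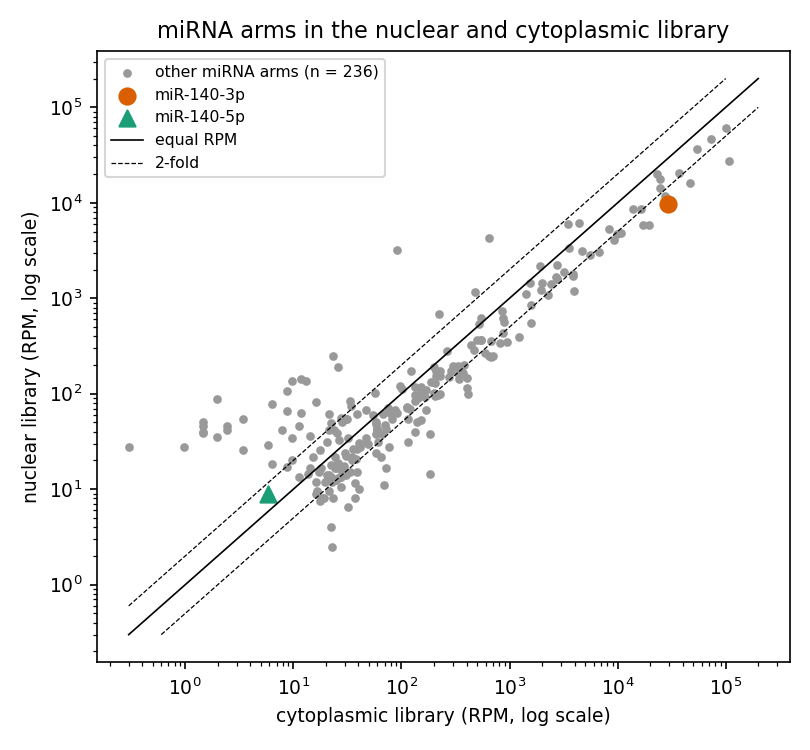
Level of each miRNA arm with at least 50 reads in the nuclear library (vertical axis) and the cytoplasmic library (horizontal axis), both in RPM on log scales; an arm with no cytoplasmic read is drawn at the left edge. miR-140-3p, at 9626 nuclear and 29446 cytoplasmic RPM, lies below the dashed 2-fold line, and miR-140-5p, at 9.0 and 5.88 RPM, lies near the line of equal levels.

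The 5p arm was close to absent. miR-140-5p had 18 nuclear reads (9.0 RPM) and 12 cytoplasmic reads (5.88 RPM) in 8 distinct sequences. The 3p arm thus made up 99.907% of arm reads in the nuclear library (exact 95% interval 99.852 to 99.945) and 99.980% in the cytoplasmic library (99.965 to 99.990), or 1070 and 5009 reads of 3p for each read of 5p. In both libraries the 3p strand was the guide by abundance. The minor arm held 0.0378% of Mir140 arm reads over both libraries, against a median of 0.207% over 84 hairpins with at least 1000 reads, and was number 29 from the scarcest. The 5 hairpins with the most similar 3p share, over both libraries, were Mir101a, Mir29a, Mir27a, Mir378a and Mir24-1, with 99.96% to 99.98% of reads from the 3p arm, and 31 of the 84 hairpins had mostly 3p reads.

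The odds of a 5p read against a 3p read were 4.68 times as high in the nuclear library as in the cytoplasmic library (95% interval 2.13 to 10.7). Of 126 hairpins with reads on both arms, 19.0% had odds of 3p to 5p at least 2-fold lower in the nuclear library with an interval that excluded 1, as Mir140 had, and 10.3% had them higher. Most of the 18 nuclear 5p reads came from the leading sequence. The leading 5p sequence, which begins at hairpin position 6 and ends at position 27, had 14 nuclear and 2 cytoplasmic reads, while the other 7 sequences of the arm together had 4 and 10. Without it the odds differed by 1.25 (0.286 to 4.33), an interval too wide to show either a shift or its absence. This split was made after the counts were seen. As a level, miR-140-5p had a nuclear over cytoplasmic ratio of 1.53, whose interval of 0.698 to 3.48 held 1. It was 0.982 (0.448 to 2.24) by the median of ratios and 2.83 (1.29 to 6.44) under the miRNA total, where the interval excluded 1.

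The 5p reads were nearly uniform at their start. All 18 nuclear and 11 of 12 cytoplasmic reads began at position 6, and the remaining read began at position 7. At least 1 added base was seen in 4 of the nuclear and 5 of the cytoplasmic 5p reads, too few for a comparison. The loop sequence, from position 27 to position 46, had 1 nuclear and 8 cytoplasmic reads. It begins at the last base of the leading 5p sequence and ends at the first base of 3p sequence A. Reads from exons or retained introns of Wwp2 numbered 5 in the nuclear library and 0 in the cytoplasmic library, so the host transcript was barely represented among these small RNAs.

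The second question was where miR-140-3p begins. Reads at the annotated start, hairpin position 45, were 7834 of 19252 in the nuclear library (40.7%, exact 95% interval 40.0 to 41.4) and 28940 of 60111 in the cytoplasmic library (48.1%, 47.7 to 48.5). Reads that began 1 base later, at position 46, were 10997 in the nuclear library (57.1%, 56.4 to 57.8) and 30401 in the cytoplasmic library (50.6%, 50.2 to 51.0). Position 47 held 402 nuclear reads (2.09%) and 734 cytoplasmic reads (1.22%). The starts at positions 44, 48 and 49 had 2 to 20 reads in either library. The commonest start was therefore not the annotated one in either library, and neither start was rare. Among full-length matches alone, which hold no added bases, position 46 had 50.9% of nuclear reads and 43.7% of cytoplasmic reads, so there the annotated start was the commoner in the cytoplasmic library.

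The start decides the seed. From the annotated start the seed reads ACCACAG, and among 1738 mature miRNAs of the RefSeq table only miR-497b shares it. From position 46 the seed reads CCACAGG, and from position 47 CACAGGG, and no mature miRNA of that table has either. miR-497b, printed here to show the shared seed in capitals, comes from chromosome 11 (GRCm38.p6, minus strand, 70234763 to 70234786) and had 1 nuclear and 3 cytoplasmic reads from its hairpin.
miR-497b: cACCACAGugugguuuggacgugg
The annotated start of Mir140, which gives that seed, had 7834 nuclear and 28940 cytoplasmic reads. Of the annotated miRNAs with that seed, Mir140 thus held nearly all reads, though its reads from position 46 carry another seed. The leading 5p sequence has the seed AGUGGUU, shared with miR-876-3p, whose hairpin had no read.

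**Figure D2:**
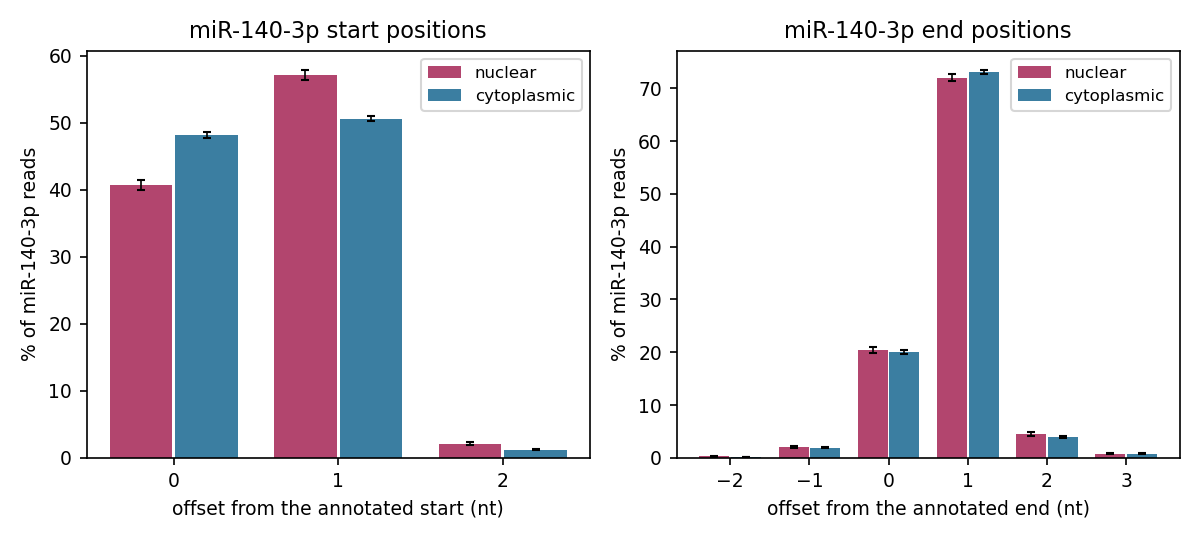
Share of miR-140-3p reads (%) at each start (left) and end (right), as the offset in nt from the annotated start and end, in the nuclear library (left bar of each pair, 19252 reads) and the cytoplasmic library (right bar, 60111 reads), with exact 95% binomial intervals for counting error. The start at offset 1 held 57.1% of nuclear and 50.6% of cytoplasmic reads, and the end at offset 1 held 72.0% and 73.1%.

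The starts divided unequally between the fractions. The annotated start had a nuclear level of 3917 RPM against a cytoplasmic level of 14177 RPM, a ratio of 0.276 (0.269 to 0.283). The start at position 46 had 5498 against 14892 RPM, a ratio of 0.369 (0.361 to 0.377). The start at position 47 had 201 against 360 RPM, a ratio of 0.559 (0.494 to 0.632). Each later start of these 3 was thus less depleted from the nuclear library than the one before it. Under the miRNA total the ratios were 0.510, 0.682 and 1.03, the last with an interval (0.912 to 1.17) that held 1. Their order cannot change, since a scaling multiplies all 3 by the same factor. Starts at positions 48 and 49 had too few reads to extend this order, with ratios of 0.459 (0.184 to 1.05) and 0.437 (0.138 to 1.21).

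Set against each other, which removes the scaling, reads at position 46 numbered 1.40 for each read at position 45 in the nuclear library and 1.05 in the cytoplasmic library, an odds ratio of 1.34 (1.29 to 1.38). This ratio was above 1 among reads of every end from position 64 to position 68, at 2.22 (1.34 to 3.64), 1.54 (1.42 to 1.67), 1.37 (1.32 to 1.43), 1.38 (1.17 to 1.63) and 1.34 (0.900 to 2.01), and only the last interval held 1. It was 1.36 (1.31 to 1.41) among reads with no added base and 1.43 (1.33 to 1.55) among reads with added bases. Among reads of 20 to 24 nt it was 1.19 to 1.89 at each length, all with intervals above 1, and at 25 nt it was 0.889 (0.0849 to 5.04). The difference between the libraries was thus also seen within each common end and length.

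Few miRNA arms had as mixed a start. Off its commonest start lay 42.9% of nuclear and 49.4% of cytoplasmic miR-140-3p reads, number 5 of 75 arms with at least 1000 reads in the nuclear library and number 3 in the cytoplasmic library. Over both libraries 47.8% of miR-140-3p reads lay off its commonest start, against a median of 1.08% over the 75 arms. By this pooled share it was number 3, after Gm47285-5p (66.7%), an annotated hairpin without a miRNA name, and miR-142-5p (49.6%), a miRNA of blood cells. miR-101b-3p (46.0%), miR-101a-3p (42.7%) and miR-21a-3p (39.8%) came next by the pooled share, but in the nuclear library miR-101b-3p (50.8%) and miR-101a-3p (43.8%) lay above miR-140-3p. The second start of miR-140-3p held 46.3% of its reads, more than the second start of any other of the 75 arms. For 36.5% of the 74 arms with more than 1 start, the odds of the commonest start differed between the libraries with an interval that excluded 1, and for 16.2% they were higher in the nuclear library, among them miR-140-3p, at 1.30 (1.26 to 1.35) against all its other starts. A change of 2-fold or more with such an interval was found in 13.5% of the 74 arms, and miR-140-3p did not reach it.

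**Figure D3:**
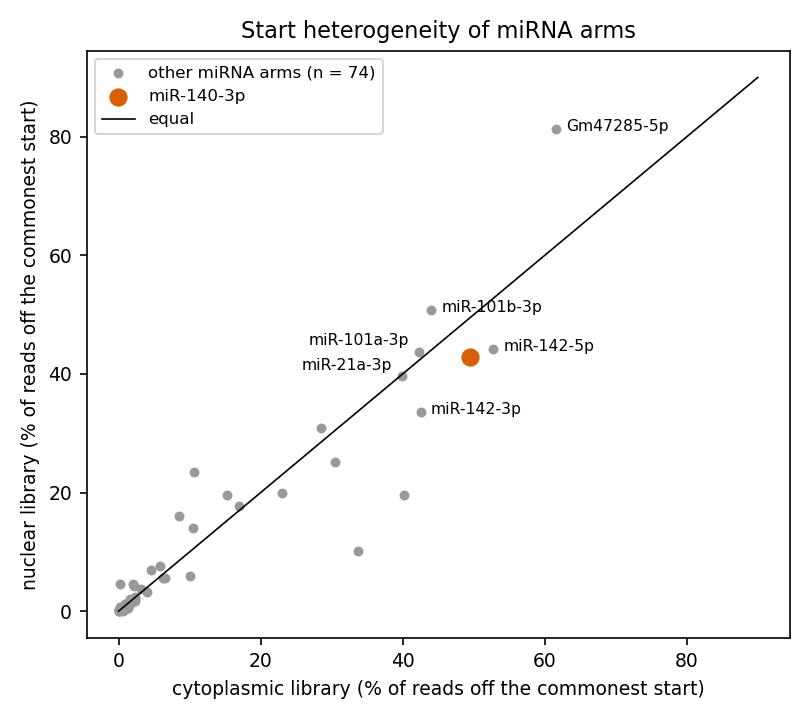
Share of reads (%) that begin off the commonest start of each miRNA arm with at least 1000 reads, in the nuclear library (vertical axis) and the cytoplasmic library (horizontal axis); the line marks equal shares. miR-140-3p, at 42.9% nuclear and 49.4% cytoplasmic, lies among the few arms far from the origin and under the line.

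The third question was where miR-140-3p ends, counted as the last base that matches the hairpin. The annotated end, position 65, held 3916 nuclear reads (20.3%) and 12032 cytoplasmic reads (20.02%). The next base, position 66, held 13870 nuclear reads (72.0%, 71.4 to 72.7) and 43940 cytoplasmic reads (73.1%, 72.7 to 73.5). Position 67 held 869 nuclear (4.51%) and 2365 cytoplasmic reads (3.93%), and position 64 held 391 (2.03%) and 1139 (1.89%). The commonest end thus lay 1 base past the annotated one in both libraries, and the ends differed far less between the libraries than the starts did. The odds of an end at position 66 had a nuclear over cytoplasmic ratio of 0.948 (0.915 to 0.984). The base at position 66 is A, so a read that ended at position 65 and received an A cannot be told apart from one cut at position 66. The ends were less mixed than in most miRNAs, as 27.2% of reads lay off the commonest end, against a median of 45.0% over the 75 arms.

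Start and end were linked. Among reads from the annotated start, 2717 nuclear reads ended at position 65 and 4345 at position 66, and 9358 and 17041 cytoplasmic reads did. Among reads from position 46, 1176 nuclear reads ended at position 65 and 9180 at position 66, and 2627 and 26257 cytoplasmic reads did. The later start thus went with the later end. The commonest length was 22 nt for the annotated start, at 45.0% of nuclear and 46.2% of cytoplasmic reads, and 21 nt for position 46, at 54.5% and 54.3%. All starts together, reads of 21 nt were 45.7% of nuclear and 43.1% of cytoplasmic reads, and reads of 22 nt were 34.1% and 36.9%.

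**Figure D4:**
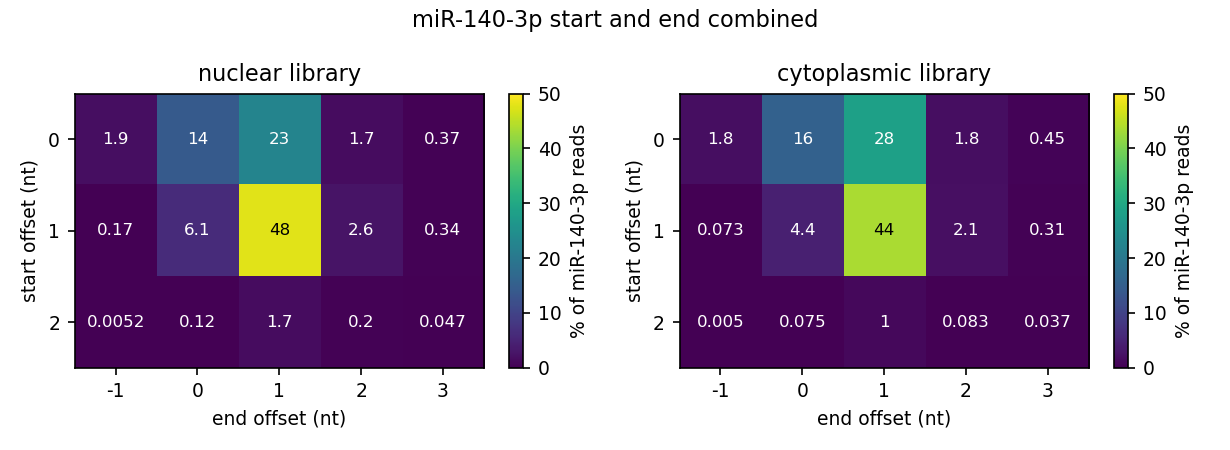
Share of miR-140-3p reads (%, colour and printed value) with each combination of start offset (vertical axis, nt) and end offset (horizontal axis, nt) from the annotation, in the nuclear library (left) and the cytoplasmic library (right). Start offset 1 with end offset 1 held 47.7% of nuclear and 43.7% of cytoplasmic reads, and start offset 0 with end offset 1 held 22.6% and 28.3%.

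The minimum-energy fold of the hairpin places these ends on the duplex. Of the 22 bases of the leading 5p sequence 20 were paired, and of the 21 bases of 3p sequence A 19 were. At the loop side the 5p sequence extended 2 bases past the partner of the start at position 46, and 1 base past the partner of the annotated start. At the base of the hairpin the 3p end at position 66 extended 2 bases past the partner of the 5p start, the annotated end 1 base and the end at position 67 extended 3 bases. RNase III enzymes such as Drosha and Dicer leave 3′ overhangs of 2 bases. The commonest start and the commonest end each met that number against the leading 5p sequence, in a predicted fold and on the strength of 16 reads of that sequence. Its end at position 27 led in the nuclear library alone, with 15 of 18 5p reads against 3 at position 26. In the cytoplasmic library each of these positions had 5 of 12. Whether the 3p start and end come from such cuts was not tested.

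The 3 leading sequences gave the same picture without any summing. 3p sequence A, of 21 nt from position 46 to position 66, had 5858 nuclear reads (2929 RPM) and 16236 cytoplasmic reads (7953 RPM), 30.4% and 27.0% of the arm, a ratio of 0.368 (0.357 to 0.380). 3p sequence B, of 22 nt from the annotated start to position 66, had 3465 nuclear and 13189 cytoplasmic reads, a ratio of 0.268 (0.258 to 0.278). 3p sequence C, which is the annotated miR-140-3p of 21 nt, had 2649 and 9114 reads, 13.8% and 15.2% of the arm, a ratio of 0.297 (0.284 to 0.310). The annotated sequence was thus number 3 of the arm in both libraries, and the 8 most abundant sequences together held 84.4% of the arm in the nuclear library and 85.1% in the cytoplasmic library.

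Of the 281 sequences of the 3p arm, 127 were in both libraries and 41 had at least 50 reads over both. The ratio of these 41 had a median of 0.336 and a range of 0.115 to 0.783. For 39 the interval lay under 1 and for 2 it held 1, and under the miRNA total these counts were 27 and 14. They rest on the interval alone, without the 2-fold threshold used for the calls. No such share over all sequences was computed to set beside them. These sequences are parts of the same arm, whose own ratio was 0.327, and are not replicates. The ends of the range rest on few reads, 8 nuclear and 71 cytoplasmic for 0.115, and 33 and 43 for 0.783. The 13 sequences from the annotated start ranged from 0.115 to 0.329, with a median of 0.258. The 23 from position 46 ranged from 0.134 to 0.642, with a median of 0.355, and the 5 from position 47 from 0.464 to 0.783. The ranges of the annotated start and of position 47 did not overlap, while position 46 spanned most of both. The interval of the lowest sequence from position 47 (0.259 to 0.804) did reach into the range of the annotated start.

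The last question was how often bases were added to the 3′ end. Bases past the point where the match to the hairpin stopped, 1 to 3 of them, are called added here. They were on 4785 miR-140-3p reads in the nuclear library (24.9%, 24.2 to 25.5) and 15443 in the cytoplasmic library (25.7%, 25.34 to 26.04). A changed base among the last 3 is counted as added too, together with any matching bases after it. With the match stopping at position 63, 96.0% of 50 nuclear and 87.8% of 90 cytoplasmic reads were counted so. A single base was carried by 18.2% of nuclear and 18.3% of cytoplasmic reads, a pair by 5.41% and 6.09%, and 3 bases by 1.24% and 1.28%. Over both libraries the share was 25.5%, number 19 of 71 arms, against a median of 15.1%. These arms had at least 1000 reads and more than 3 bases of hairpin past their end. Of the arms with fewer such bases, miR-24-3p (41.8%) and miR-378a-3p (32.3%) had larger shares, and miR-199a-3p (13.25%) and miR-142-3p (8.05%) smaller ones. The most frequent additions at the commonest end are shown with the added bases in capitals.
with A: accacagggtagaaccacggaA
with T: accacagggtagaaccacggaT
with AA: accacagggtagaaccacggaAA

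A was the most frequent addition and T, which stands for uridine, was the next. Of reads with added bases, tails of A alone were 58.3% in the nuclear library and 58.3% in the cytoplasmic library, tails of T alone 24.4% and 25.2%, and tails with a G or C 10.4% and 8.59%. The sequence with A had 1595 nuclear and 4576 cytoplasmic reads, that with T had 780 and 2517, and that with AA had 403 and 1398. At the end at position 66, where the next encoded base is C, 22.2% of nuclear and 22.8% of cytoplasmic reads went on with an added A, and 7.54% and 7.97% with an added T. At position 65 an added A cannot be seen, since the hairpin itself goes on with A, and an added T followed in 5.62% and 6.99% of reads. An added C at position 65 was scarce but more frequent in the nuclear library, with 48 of 3916 reads against 26 of 12032 cytoplasmic reads. A read that ends at position 66 with its A read as C cannot be told apart from it, and A-to-C substitutions inside the arm also had more nuclear reads (74) than cytoplasmic reads (47).

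Added bases went with the later start in both libraries. Reads from position 46 carried them in 33.0% of nuclear reads (32.1 to 33.9) and 35.8% of cytoplasmic reads (35.2 to 36.3). Reads from the annotated start carried them in 12.7% (11.98 to 13.47) and 14.8% (14.4 to 15.2). With the end held at position 66, the shares were 36.2% and 38.2% for position 46, and 20.3% and 22.6% for the annotated start. With the end held at position 65, they were 17.9% and 24.8% against 2.50% and 2.61%. At position 66 an added A followed 24.9% of nuclear and 25.8% of cytoplasmic reads from position 46, against 15.9% and 17.96% of those from the annotated start, and an added T followed 9.27% and 10.5% against 3.73% and 3.99%. The intervals of the 2 starts did not overlap at ends 65 and 66. At position 67 they overlapped in both libraries, with 4.33% of nuclear (2.73 to 6.48) and 5.99% of cytoplasmic reads (4.73 to 7.46) from position 46, against 1.88% (0.691 to 4.04) and 3.63% (2.59 to 4.93) from the annotated start.

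**Figure D5:**
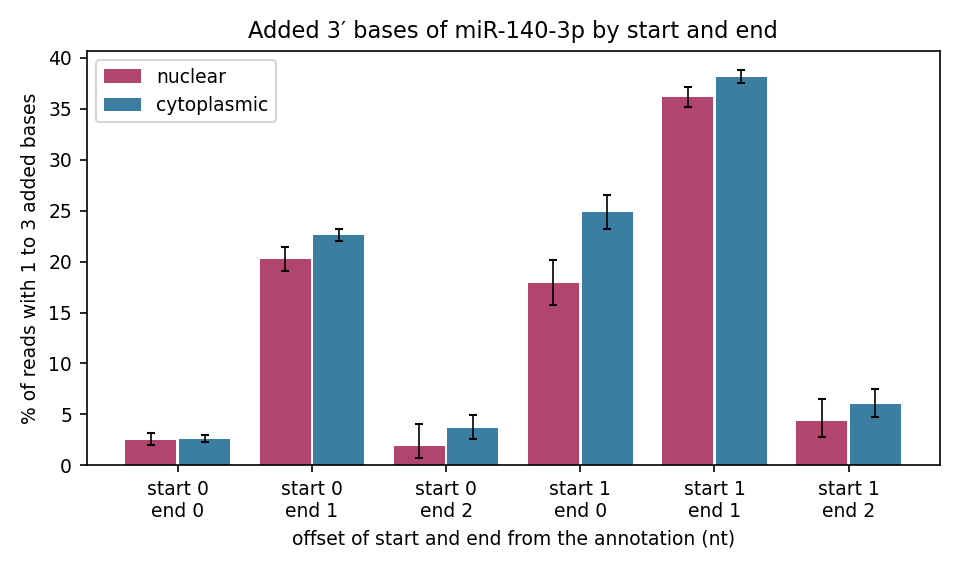
Share of miR-140-3p reads (%) that carry 1 to 3 added 3′ bases, by start and end offset from the annotation (nt), in the nuclear library (left bar of each pair) and the cytoplasmic library (right bar), with exact 95% binomial intervals. At end offset 1, reads with start offset 1 carried added bases in 36.2% of nuclear and 38.2% of cytoplasmic reads, and reads with start offset 0 in 20.3% and 22.6%.

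Between the libraries the total of added bases differed little, while single ends and kinds of tail differed in both directions. The odds of an added base had a nuclear over cytoplasmic ratio of 0.957 (0.922 to 0.993). Among the 71 arms, 21.1% had lower and 18.3% higher odds in the nuclear library with an interval that excluded 1. Within a start the ratio was further from 1, at 0.839 (0.779 to 0.903) for the annotated start and 0.884 (0.844 to 0.926) for position 46. The start with more added bases held the larger share of nuclear reads, as given above. For position 47 it was 1.05 (0.813 to 1.36). Reads that ended at position 64 went the other way. They carried added bases in 9.72% of nuclear and 5.53% of cytoplasmic reads, an odds ratio of 1.84 (1.17 to 2.85). Of these reads with added bases, 26 of 38 nuclear and 14 of 63 cytoplasmic reads went on with T. Added A (1.79% and 2.63%) and added C (1.28% and 1.67%) took smaller shares of nuclear reads with this end. The next encoded base is G, and a longer read with that G read as T cannot be told apart from an added T. Tails with a G or C were also a larger share of nuclear tails, at 1.23 (1.10 to 1.38). Against all reads of the arm, the odds ratio was 3.8 for C alone (28 nuclear and 23 cytoplasmic reads). It was 2.56 for TGA (27 and 33) and 0.986 (0.807 to 1.20) for G alone, the most frequent of these kinds. A changed base within an encoded end can give such tails too, and these were not separated. Tails of AA were on 2.69% of the arm's nuclear and 3.28% of its cytoplasmic reads, an odds ratio of 0.816 (0.739 to 0.900), and a single A 11.6% and 11.5%, with an odds ratio of 1.01 (0.956 to 1.06).

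Sequences with 1 substitution inside the 3p arm were outside the rule and were counted separately. They had 529 nuclear reads, 3.53% of full-length 3p reads with and without a substitution (3.24 to 3.84), and 1966 cytoplasmic reads, 4.22% (4.03 to 4.40). All 57 possible substitutions at the 19 positions covered were seen, with a median share of 0.0237% over both libraries. Positions here count from the annotated start as base 1, with the hairpin's base given first. T11G stood out, at 77 nuclear reads (0.529%, 0.418 to 0.661) and 609 cytoplasmic reads (1.34%, 1.24 to 1.46), followed over both libraries by C16T (0.317% and 0.261%). A-to-G changes, the form in which adenosine-to-inosine editing is read, reached at most 0.0473% over both libraries, at A14G.

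Of the genes that make, load, extend or trim miRNAs, 23 were listed, and fragments of their transcripts served only to show whether they were present. Reads were found for 22 of the 23, 220 nuclear and 99 cytoplasmic in all, and Drosha had none. Ago2, which encodes the Argonaute that can cleave its target, was the only one with at least 50 reads, at 35 nuclear and 18 cytoplasmic, a ratio of 1.98 (1.09 to 3.72) and under the 2-fold threshold. Dicer1 had 23 and 4 reads. Tut7, a transferase that adds uridine, had 24 and 10, Tut4, a related enzyme, 4 and 4, and Tent2, a transferase that adds adenosine, 6 and 7. Of all entries with at least 50 reads, fragments of long transcripts included, 41.1% were called higher and 11.2% lower in the nuclear library. Ago2 was called neither, and the other listed genes had too few reads to be assessed. Fragments of 18 to 39 nt do not measure the level of these mRNAs.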

How the data were processed

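Small RNAs of 1 nuclear and 1 cytoplasmic library were analysed. The table deposited by the authors gives each sequence (18 to 39 nt) its RPM in both libraries, and the columns were taken as nuclear and cytoplasmic on their last letter. CASAVA and the build mm10 are named, per the submitters' processing notes; for trimming, alignment and filters, the sources used here give nothing. All values above 0 (100%) were whole multiples of 1 read within 0.1 read, and whole reads were recovered (1 read is 0.500 RPM nuclear and 0.490 RPM cytoplasmic). With 1 library per group no count model could be fitted, and no p-value is given.

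Sequences were matched to GENCODE vM21 transcripts (GRCm38, the mm10 build), sense strand only, over their full length or, for small RNAs, after removal of up to 3 bases at the 3′ end with at least 18 left. A read was put on an arm by the side of the terminal loop on which its midpoint lay, in a fold by ViennaRNA 2.7.2 (loop of Mir140 at positions 35 to 37); a midpoint in the loop made it a loop sequence. Reads of Mir140 were counted by the rule itself. For other miRNAs every read that matches a hairpin was counted, and arms with the same leading sequence or name entered once. In the counts of hairpins, some that share the reads of an arm, such as Mir24-1 and Mir24-2, each entered. Other small RNAs were counted per gene, and sequences in more than 10 long genes were left out.

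Ratios are nuclear over cytoplasmic. Intervals are at 95%, exact (Clopper-Pearson) for shares; for ratios they condition on the summed reads. Odds ratios have exact conditional intervals, or normal ones where each count is at least 500. A difference was called at 2-fold (log2 ratio with a pseudocount of 0.5 reads) with an interval that excludes 1. Alternatives were TMM factors (edgeR 4.0.16), the median of ratios, the miRNA total, and the choices of match, length and minimum reads described at the end. The calls and the match rule were tested on simulated data. Named were both arms, starts and ends with at least 1% of an arm's reads, the 8 most abundant sequences of an arm, and the 5 arms or hairpins most like miR-140-3p; other starts, and substitutions, were added after their values were seen, as were the 5p arm without its leading sequence and other scalings of starts and sequences. The members, lists and rules were chosen with earlier results of these data known.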

Additional observations from a re-analysis of the deposited data

How the results depend on the processing

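No paired analysis was possible because each group has 1 library, and no replicate could be left out. The log2 ratio of miR-140-3p, -1.61 in RPM, was -0.73 under the miRNA total, -2.13 with TMM factors and -2.25 by the median of ratios. That of miR-140-5p, 0.61 without a pseudocount, was 2.84 when sequences needed at least 10 reads, since the leading sequence alone was left, and the 3p share of cytoplasmic arm reads was then 99.997%. With full-length matches only, the start at position 46 held 50.944% of nuclear and 43.716% of cytoplasmic reads, so that in the cytoplasmic library the annotated start became the commonest, and the end at position 66 held 65.846% and 66.741%. With up to 1 unmatched base the start held 55.548% and 48.992%, the end 71.266% and 72.224%, and added bases 19.503% and 19.774%, fewer by construction. With 1 internal mismatch allowed, added bases were in 24.190% and 24.877% of reads, and with at least 10 reads per sequence in 25.233% of cytoplasmic reads. The odds ratio of the starts stayed above 1 under each alternative run. Of 237 miRNA arms 38 were called higher and 62 lower in the nuclear library. The numbers were 84 and 99 with no minimum of reads, 12 higher with at least 200 reads, 134 lower with TMM factors, 149 lower by the median of ratios, and 62 higher and 11 lower under the miRNA total, where miR-140-3p was not among them. The RefSeq table used lists the 3p arm of Mir140 alone, so the check by overlap with the annotated arm (at least 15 nt) covers that arm. Depth limits the 5p arm above all, since a count of 0 allows up to 3 reads.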
